A study of Mus musculus with 8 samples.

Results

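The genes described here are 9 genes of bone morphogenetic protein (BMP) signalling: the ligands Bmp2, Bmp4, Bmp5 and Bmp7, the secreted modulators Grem1 and Bmper, and the target genes Id1, Id2 and Id3. They were taken by symbol from a list of names and are 9 of the 24151 genes measured. All 9 reached 1 TPM (transcripts per 1000000, a level corrected for transcript length) in at least 2 libraries and so entered the tests. Kidneys of embryos of outbred ICR mice were sequenced after their mothers, bred at 8 weeks of age, had received chlorpyrifos (CPF, an organophosphate insecticide) dissolved in dimethyl sulfoxide (DMSO), or the solvent alone. CPF was given at 5 mg/kg under the skin each day of gestation 7.5 to 11.5, and the solvent was given to the control mothers on the same days. The 8 libraries are 4 of CPF and 4 of DMSO, 1 of each at E12.5 and then every 2 days up to E18.5. In GRCm38.p6 (RefSeq) Bmp2, Bmp7, Grem1 and Id1 lie on chromosome 2, Id3 on 4, Bmp5 and Bmper on 9, Id2 on 12 and Bmp4 on 14. The number of animals behind a library is not stated in the labels used here.

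BMPs are secreted dimers that bring type I and type II serine/threonine kinase receptors together, and the type I receptor phosphorylates SMAD1, SMAD5 and SMAD9, which enter the nucleus with SMAD4. The Id genes are direct SMAD targets in many cells, and Id proteins bind basic helix-loop-helix factors and keep them from DNA. In the mouse kidney Bmp7 maintains nephron progenitors, Bmp4 acts around the ureter, where it restrains budding and promotes smooth muscle, and Grem1 blocks BMPs so that the ureteric bud can grow out and branch.

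The depositors' values sum to 1000000 TPM in each library, and depth is not given. The noncoding RNAs Rpph1 and Rmrp took, stage by stage, 19.3, 20.7, 21.8 and 21.3% of the TPM in CPF libraries and 19.6, 23.6, 31.0 and 41.8% in DMSO libraries. Coding transcripts took, stage by stage, 73.7, 72.7, 73.1 and 73.9% of the TPM in CPF libraries. In DMSO libraries they took 75.1, 69.7, 63.2 and 53.3%, a share that fell at each stage. The DMSO library of E18.5 thus had the lowest coding share and that of E16.5 the next lowest. Ratios at E18.5, and some at other stages, are accordingly given also after the coding transcripts of each library were scaled to sum to 1000000 (coding scale). Each of the 10 kidney lineage markers reached 1 TPM in at least 1 library, with sums of 247 to 428 TPM in CPF libraries and 281 to 551 TPM in DMSO libraries. Liver markers summed to 203 to 5898 TPM in CPF libraries and 22.3 to 970 TPM in DMSO libraries, with 8 of the 8 tested above 0 in CPF minus DMSO, and adrenal cortex markers to 11.2 to 495 TPM and 4.85 to 20.9 TPM. The part of such other cells in the values below was not tested, and in whole tissue fewer cells of a type and less RNA per cell cannot be told apart.

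The levels of the 9 genes differed widely, with Grem1 the lowest and Id2 and Id3 the highest. By the mean over 8 libraries the order was Id2 (349 TPM), Id3 (322), Id1 (127), Bmp7 (44.4), Bmper (40.4), Bmp4 (21.7), Bmp5 (11.1), Bmp2 (7.35) and Grem1 (1.37). The ranges of neighbours in this order overlapped except at 3 steps. Id3 lay between 211 and 406 TPM, Id1 between 77.3 and 158 TPM and Bmp7 between 31.8 and 63.1 TPM, and Bmp2 lay between 4.43 and 9.42 TPM, above Grem1 at 0.371 to 3.31 TPM. The summed Id transcripts were 7.54 to 12.2 times the summed transcripts of the 4 ligands in the same library.

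**Figure D1:**
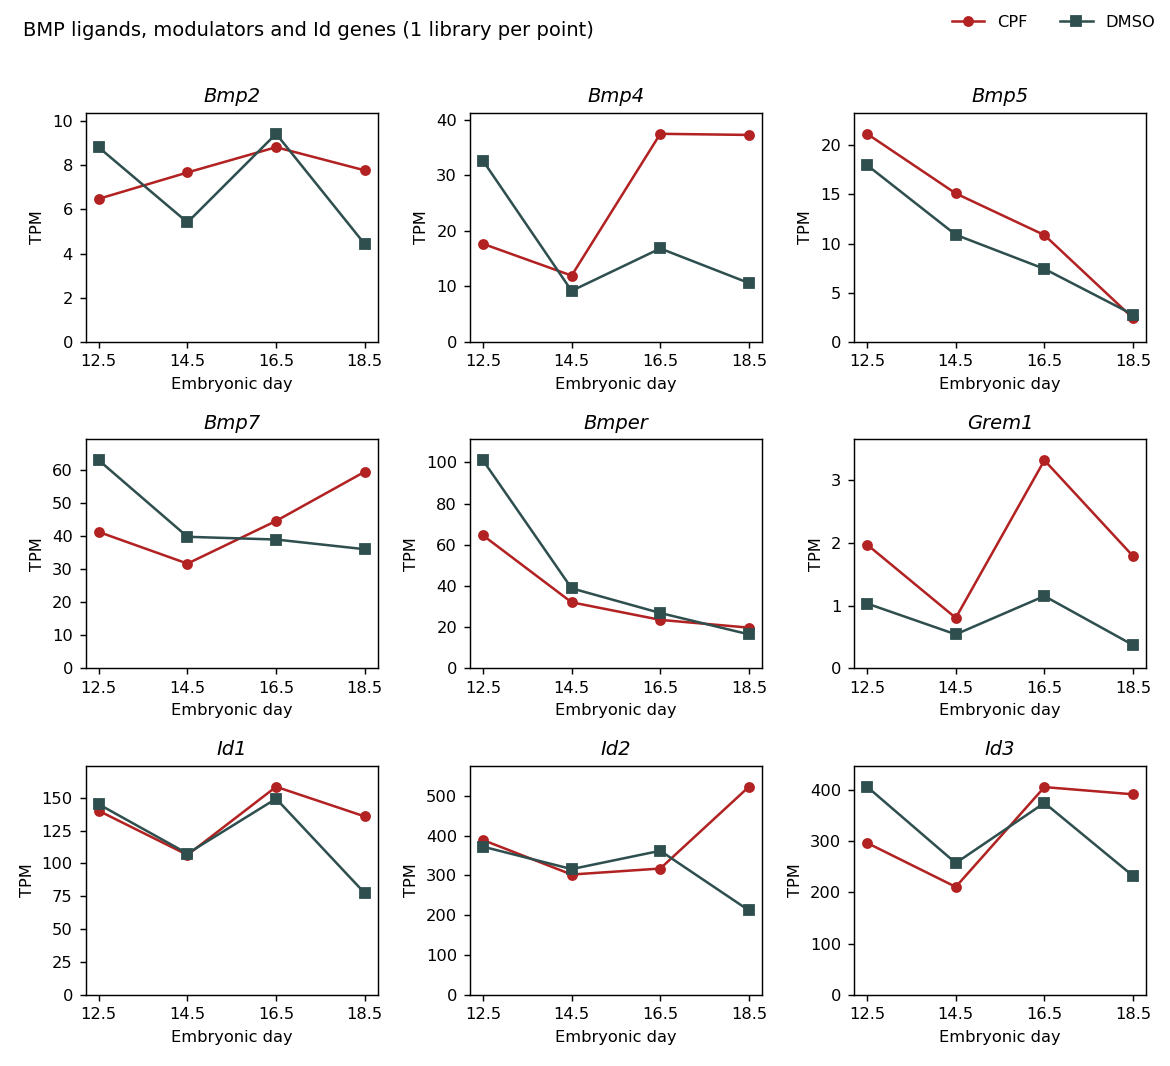
TPM of each of the 9 genes against embryonic day, with CPF libraries as red circles and DMSO libraries as dark squares, 1 library per point and no error bars. Bmp5 and Bmper are lower at E18.5 than at E12.5 with either agent, and Bmp4 and Id2 stand apart between agents at E18.5, with 37.3 and 522 TPM in CPF against 10.6 and 212 TPM in DMSO.

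Bmp5 and Bmper were the members called between E12.5 and E18.5: both fell, with CPF and with DMSO alike in direction, and no other member passed that test. With 3 residual degrees of freedom, not passing it does not show that a member stayed level over development. Bmp5, a ligand of the same subgroup as Bmp7, had 21.2, 15.1, 10.9 and 2.40 TPM at the 4 stages in CPF libraries and 17.97, 10.9, 7.42 and 2.77 TPM in DMSO libraries. Each library was lower than the one of the stage before it with the same agent, and the values of E18.5 and E12.5 did not overlap. The fitted difference of E18.5 minus E12.5 was -2.52 ± 0.39 (log2 units, SE), with an adjusted p of 0.00177 by limma. Bmper, a secreted protein that binds BMPs and can hinder or favour their signalling, had 64.6, 32.1, 23.5 and 19.8 TPM in CPF libraries and 101, 38.9, 26.9 and 16.495 TPM in DMSO libraries. Its values also stepped down at every stage, with the widest step between E12.5 and E14.5. The difference was -2.10 ± 0.34 (log2, SE), with an adjusted p of 0.00215 by limma. These 2 calls are set against 3.73% of 13677 genes called lower and 4.67% called higher in E18.5 minus E12.5, and both genes stayed called under each of the 16 other settings run, with adjusted p up to 0.0199 for Bmp5 and 0.0287 for Bmper. Some markers of cell types, of the kidney and of other tissues, moved with these values. Skeletal muscle markers summed to 21.3 TPM in CPF and 6.35 TPM in DMSO at E18.5, against 665 and 194 TPM at E12.5, with 5 of 6 tested called lower and Acta1 and Tnnt3 under 1 TPM. Erythroid markers summed to 37.4 and 69.3 TPM at E18.5, against 36826 and 8061 TPM at E12.5, with 2 of 7 called lower and Alas2 under 1 TPM. Acta1, Tnnt3 and Alas2 each have several RefSeq transcripts, and low values of such genes are not read as low expression. The stromal marker Foxd1 differed by -2.52 log2 units between E18.5 and E12.5 (adjusted p of 0.000506, limma). For the ureteric mesenchyme marker Tbx18 the difference was -3.365 (adjusted p of 0.000716, limma). The rest of their lists did not all fall. Of the renal stroma list 2 of 6 tested were called lower, and 2 of 6 were above 0. Of the ureter and smooth muscle list 2 of 6 tested were called lower and 2 higher, Acta2 (2.205) and Tagln (2.153), with 4 of 6 above 0. Nephron progenitor markers summed to 273 TPM in CPF and 389 TPM in DMSO at E18.5, against 367 and 495 TPM at E12.5. Of that list 3 of 8 tested were called lower, and 2 of 8 were above 0. The part of all these cells in the values of Bmp5 and Bmper was not tested.

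The other 7 members had fitted differences of E18.5 minus E12.5 from -0.47 to -0.14 log2 units and none was called, with adjusted p of 0.363 to 0.853 by limma. The largest of these was Id1 at -0.47 ± 0.30 (log2, SE). The median over the 9 members was -0.31, against -0.21 over all genes tested. Without the DMSO library of E18.5 the median was 0.04 for the members and 0.03 for all genes, and on the coding scale it was -0.11 and -0.01, so the sign of the medians turned without that library. The direction turned for Bmp7, Id2 and Id3 on the coding scale (0.11, 0.05 and 0.04 log2 units), while Bmp5 and Bmper were at -2.41 and -1.88.

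The promoters of these 2 genes and of 3 others described below are shown so that the stretches before the genes that fell can be read beside those of Bmp4 and of the target genes Id2 and Id3. RefSeq's promoter table (GRCm38.p6) held 6 of the 9 members: Bmp4, Bmp5, Grem1, Bmper, Id2 and Id3. Each line gives the 250 bases before the start of the gene, 5′ to 3′ on the gene's strand. Capitals mark GGCGCC, a GC-rich element bound by SMAD1 and SMAD5, and GTCT, the SMAD box, or its reverse complement AGAC.
Bmp5 (chr9:75775115-75775364, plus strand): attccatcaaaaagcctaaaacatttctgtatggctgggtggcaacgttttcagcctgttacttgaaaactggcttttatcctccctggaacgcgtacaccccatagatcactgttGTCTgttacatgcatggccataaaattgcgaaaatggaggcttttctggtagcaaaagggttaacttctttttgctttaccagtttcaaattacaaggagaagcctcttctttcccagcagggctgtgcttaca
Bmper (chr9:23222826-23223075, plus strand): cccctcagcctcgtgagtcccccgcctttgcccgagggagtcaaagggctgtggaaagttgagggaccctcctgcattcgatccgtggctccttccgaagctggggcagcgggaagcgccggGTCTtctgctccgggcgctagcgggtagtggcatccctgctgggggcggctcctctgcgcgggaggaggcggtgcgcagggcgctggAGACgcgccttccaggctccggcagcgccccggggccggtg
Bmp4 (chr14:46390670-46390919, minus strand): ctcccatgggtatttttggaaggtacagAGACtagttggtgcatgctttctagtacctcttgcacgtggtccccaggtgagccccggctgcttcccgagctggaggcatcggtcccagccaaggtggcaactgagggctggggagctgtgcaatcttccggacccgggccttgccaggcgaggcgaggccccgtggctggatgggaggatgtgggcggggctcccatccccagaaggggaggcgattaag
Id2 (chr12:25096093-25096342, minus strand): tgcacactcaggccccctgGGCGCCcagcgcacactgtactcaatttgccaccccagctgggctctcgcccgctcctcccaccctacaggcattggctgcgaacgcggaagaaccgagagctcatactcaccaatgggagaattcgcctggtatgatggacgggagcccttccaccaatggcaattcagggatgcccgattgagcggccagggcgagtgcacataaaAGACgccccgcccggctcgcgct
Id3 (chr4:136143572-136143821, plus strand): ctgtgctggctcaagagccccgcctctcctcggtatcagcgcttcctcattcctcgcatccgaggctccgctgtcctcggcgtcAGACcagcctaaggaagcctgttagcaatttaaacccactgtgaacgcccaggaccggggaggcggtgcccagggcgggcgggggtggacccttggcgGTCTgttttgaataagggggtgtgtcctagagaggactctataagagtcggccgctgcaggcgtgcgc
All 6 windows hold GTCT on 1 strand or the other, 1 time in Bmp4, Bmp5 and Id2, 2 times in Bmper and Id3 and 4 times in Grem1, and 82.9% of the table's 32851 windows of this length hold it. GGCGCC is in the windows of Id2 and Grem1, and in 9.59% of all windows. In Id2 it begins 231 bases before the start. CCAAT, in either strand, occurs 3 times in Id2 and 1 time in Grem1 (33.8% of all windows), and CANNTG, the E-box that basic helix-loop-helix factors bind, 3 times in Bmp4 and 1 time in Id2 (66.2% of all windows). GC content was 42.8% for Bmp5 and 62.8 to 72.0% for the other 5, with a median of 52.4% over all windows. A match in these letters is a description of the window and not a bound site.

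No member was called between CPF and DMSO over the 4 stages, against 0.161% of all genes (22 of 13677, adjusted p under 0.05 by limma). The stages serve as the replicates of this comparison, so its error reflects how much that difference changed from stage to stage, not from animal to animal. Fitted differences ran from -0.21 ± 0.24 for Bmper to 0.70 ± 0.29 for Grem1 (log2, SE). The members were above 0 in 7 of 9 cases with a median of 0.21, while 72.6% of all genes were above 0 with a median of 0.15. Without the E18.5 pair the members' median was -0.01, with 4 of 9 above 0, and that of all genes 0.01.

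Grem1, the antagonist that binds BMP2, BMP4 and BMP7, was the member whose CPF library was higher at all 4 stages. It had 1.97, 0.803, 3.31 and 1.79 TPM in CPF libraries and 1.03, 0.541, 1.15 and 0.371 TPM in DMSO libraries. The ranges of the agents overlap, and only within a stage is each CPF library the higher. Of 9572 genes that averaged 5 TPM or more, 34.7, 51.9, 64.8 and 86.9% were higher in CPF at the successive stages. Grem1 averaged less and is not among these genes. The share of all genes higher at all 4 was not counted. Among genes that reached 1 TPM, 7 of 8 liver, 4 of 7 adrenal cortex and 5 of 6 skeletal muscle markers were higher in CPF at all 4 stages. So were 2 of 7 other BMP ligands and 3 of 14 other secreted antagonists and modulators. For nephron progenitor markers it was 0 of 8, with 5 lower at all 4 stages. The difference of 0.70 ± 0.29 log2 units had an unadjusted p of 0.031 and an adjusted p of 0.451 in limma, and it was 0.59 to 0.86 when each stage was left out in turn. The level is low: from the smallest steps between the deposited values, Grem1 was estimated to rest on 22.7 to 169 reads in a library. Its direction at each stage was the same on the coding scale.

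Bmp4 had the highest CPF to DMSO ratios of the 4 ligands at E16.5 and E18.5, but did not pass a test. It had 17.7, 11.9, 37.5 and 37.3 TPM, from the first stage to the last, in CPF libraries and 32.7, 9.19, 16.8 and 10.6 TPM in DMSO libraries. The CPF library was the lower at E12.5 and the higher at the other 3 stages, and both agents had their lowest value at E14.5. Across stages the difference was 0.58 ± 0.38 log2 units (adjusted p of 0.717, limma), with 1.06 when the E12.5 pair was left out and 0.20 when the E18.5 pair was left out.

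The slopes over embryonic day asked whether the course differed between agents. Bmp4 had the largest slope difference of the members, 0.42 ± 0.17 log2 units per day, with 0.23 per day in CPF and -0.19 per day in DMSO libraries (unadjusted p of 0.0388, adjusted p of 0.17, limma). Without the DMSO library of E12.5 it was 0.19. Bmp7 followed at 0.22 ± 0.08 per day (unadjusted p of 0.0206, adjusted p of 0.139), with 0.10 in CPF and -0.12 in DMSO libraries. It was 0.14 without the DMSO library of E12.5, 0.15 without the CPF library of E18.5 and 0.34 without the CPF library of E12.5. No member was called, nor was any of 13677 genes (0%) by limma, although 3615 had an unadjusted p under 0.05. The slope difference was above 0 for 8 of 9 members and for 77.1% of all genes. The median was 0.14 for the members and 0.11 for all genes, and on the coding scale 0.09 and 0.04, where no member had an unadjusted p under 0.05.

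**Figure D2:**
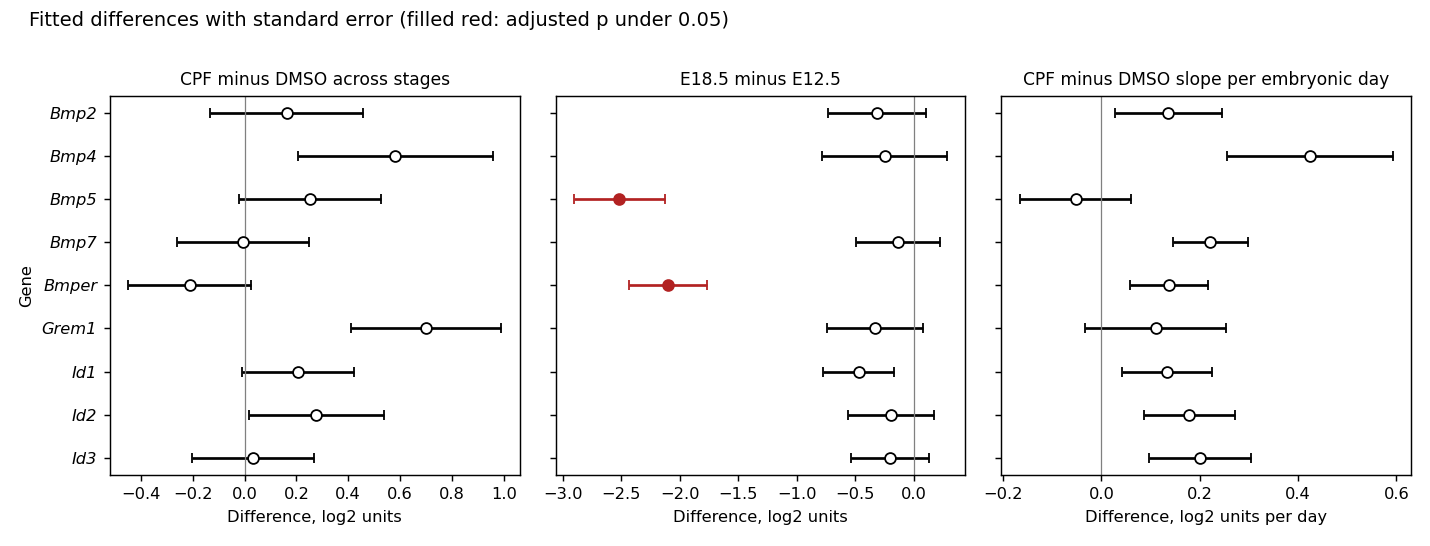
Fitted differences of the 9 genes (points) with their standard errors (bars) for CPF minus DMSO across stages and E18.5 minus E12.5 in log2 units and for the CPF minus DMSO slope in log2 units per embryonic day. The filled red points, Bmp5 at -2.52 and Bmper at -2.10 in E18.5 minus E12.5, are those with an adjusted p under 0.05.

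Bmp7, the ligand with the highest level, had 41.3, 31.8, 44.7 and 59.6 TPM in CPF libraries and 63.1, 39.9, 39.1 and 36.1 TPM in DMSO libraries. The CPF library was the lower of the pair at E12.5 and E14.5 and the higher at E16.5 and E18.5, and the difference across stages was -0.005 ± 0.25 log2 units. Bmp2, which acts through the same receptors as Bmp4, had 6.48, 7.67, 8.82 and 7.77 TPM in CPF libraries and 8.81, 5.41, 9.42 and 4.43 TPM in DMSO libraries. Its agents overlapped and changed places from stage to stage (0.16 ± 0.30 log2 units across stages). Bmp5 was higher in CPF at E12.5, E14.5 and E16.5, by 0.22 to 0.49 log2 units, and lower at E18.5 (0.25 ± 0.27 across stages). Bmper was lower in CPF at those first 3 stages, with log2 ratios of -0.64, -0.27 and -0.18. At E18.5 its ratio was 0.25 as deposited and -0.20 on the coding scale.

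Ratios of members within a library do not depend on how the library is scaled. Bmp4 amounted to 0.43, 0.38, 0.84 and 0.63 of Bmp7 over the 4 stages in CPF libraries, against 0.52, 0.23, 0.43 and 0.29 in DMSO libraries. Of the summed ligand transcripts Bmp4 made up 36.8% at E16.5 and 34.8% at E18.5 in CPF libraries, against 23.2% and 19.7% in DMSO libraries. Bmp7 held the largest share in every library, 43.9 to 55.7% in CPF and 51.5 to 67.0% in DMSO. Bmp5 went down to 2.24% of the ligand transcripts at E18.5 in CPF and 5.13% in DMSO, and Bmp2 made up 7.25 to 11.5% in CPF and 7.19 to 13.0% in DMSO. Bmper was 0.18 and 0.31 of the summed ligands at E18.5 in CPF and DMSO, against 0.75 and 0.82 at E12.5.

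**Figure D3:**
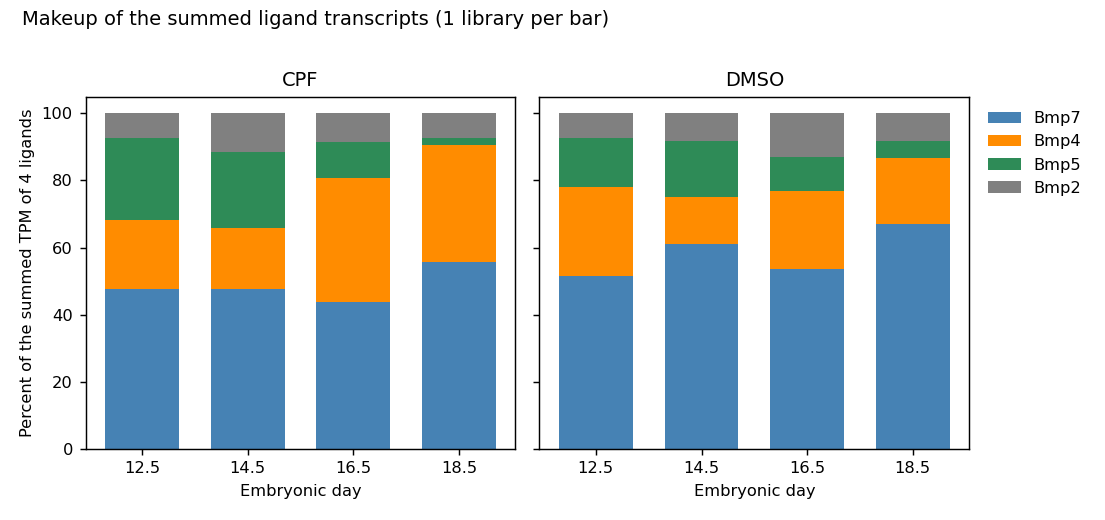
Share of each ligand in the summed TPM of Bmp2, Bmp4, Bmp5 and Bmp7, in percent, against embryonic day, with CPF libraries left and DMSO libraries right and 1 library per bar. The Bmp4 share at E16.5 and E18.5 is 36.8 and 34.8% in CPF and 23.2 and 19.7% in DMSO, and the Bmp5 share shrinks to 2.24% in CPF and 5.13% in DMSO.

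The Id genes had log2 ratios of CPF to DMSO from -0.29 to 0.11 at E14.5 and E16.5 and from 0.75 to 1.30 at E18.5. On the coding scale these were -0.40 to -0.07 and 0.28 to 0.83, and Id3 was then no closer between agents at E14.5 (-0.35) than at E18.5 (0.28). Id1 had 140, 106, 158 and 136 TPM in CPF libraries and 145, 107, 149 and 77.3 TPM in DMSO libraries. Up to E16.5 its log2 ratios lay between -0.05 and 0.08, and the DMSO library of E18.5 had the lowest value of the 8. Id2 had 389, 302, 317 and 522 TPM in CPF libraries and 372, 316, 362 and 212 TPM in DMSO libraries. Both its highest and its lowest library were thus of E18.5. Id3 had 297, 211, 406 and 392 TPM in CPF libraries and 406, 257, 375 and 232 TPM in DMSO libraries, with the CPF library lower at E12.5 and E14.5. The differences across stages were 0.21 ± 0.22, 0.28 ± 0.26 and 0.03 ± 0.24 log2 units (SE) for Id1, Id2 and Id3, with adjusted p of 0.85, 0.832 and 0.982 by limma. Without the E18.5 pair they were 0.007, -0.06 and -0.21 in the same order, and on the coding scale 0.03, 0.10 and -0.15.

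Within a library Id2 was 2.78, 2.84, 2.00 and 3.85 times Id1 in CPF and 2.57, 2.94, 2.42 and 2.74 times in DMSO. The CPF library of E18.5 thus held the largest excess of Id2, and this does not depend on scaling. Id3 was 1.98 to 2.89 times Id1 in CPF and 2.39 to 3.00 times in DMSO. The summed Id transcripts per ligand transcript were 9.52, 9.32, 8.65 and 9.80 in CPF and 7.54, 10.4, 12.2 and 9.67 in DMSO, so the agents were closest at E18.5, where the separate levels were farthest apart.

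Each stage has 1 library per agent, so the ratios at a stage carry no test, and past 2-fold was counted among the 9572 genes that averaged 5 TPM or more, which include 8 of the members (all but Grem1). At E12.5 no member was past 2-fold, against 4.24% of genes higher and 1.78% lower in CPF, and at E14.5 none, against 3.74% and 1.12%. At E16.5 Bmp4 was past it (log2 ratio 1.11), against 4.85% of genes higher and 1.92% lower. On the coding scale Bmp4 was at 0.92 and no member was past 2-fold, against 3.75% of genes higher. At E18.5 Bmp4 (1.72) and Id2 (1.30) were past 2-fold, against 21.8% of genes higher and 1.44% lower. On the coding scale only Bmp4 was (1.30, with Id2 at 0.83), against 8.92% of genes higher. Grem1, below the level filter, had ratios of 1.00 at E16.5 and 1.02 at E18.5. The median over the 9 members was -0.39, -0.01, 0.11 and 0.75 in the order of the stages, against -0.19, 0.02, 0.14 and 0.58 over all genes. On the coding scale it was -0.38, -0.07, -0.09 and 0.31 for the members and -0.17, -0.04, -0.06 and 0.14 for all genes, and 3 members in place of 6 were higher in CPF at E16.5.

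**Figure D4:**
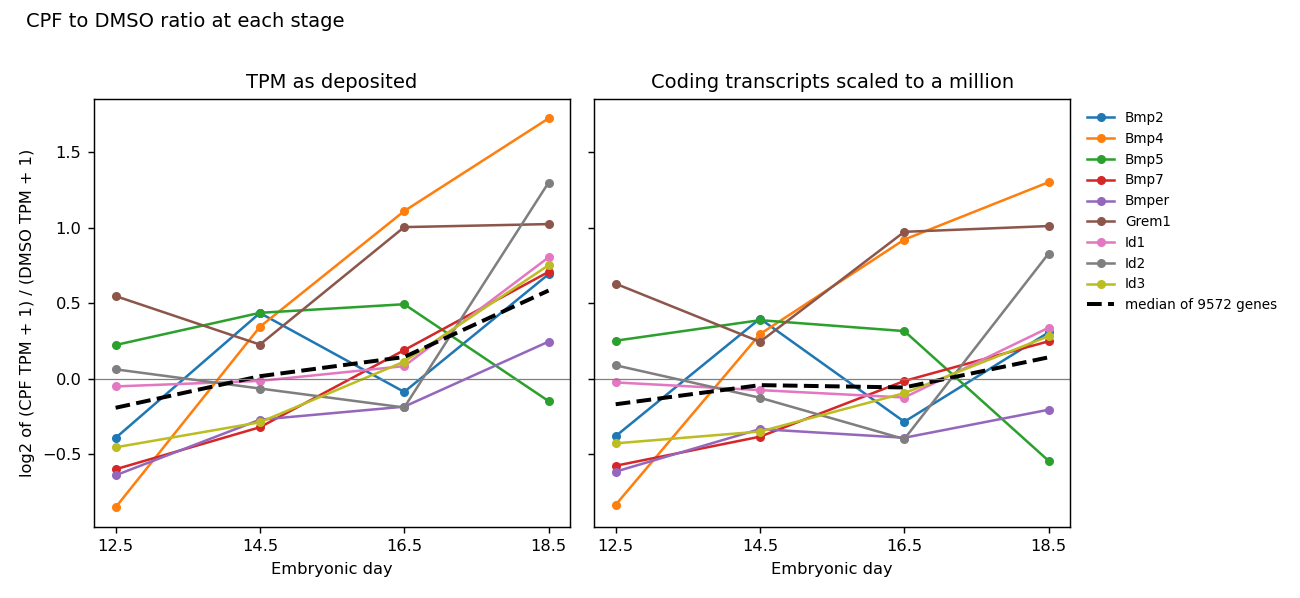
Log2 ratio of CPF to DMSO (TPM + 1) at each embryonic day for the 9 genes (coloured lines, 1 library of each agent per point) and the median of 9572 genes (dashed), as deposited (left) and with coding transcripts scaled to 1000000 (right). At E18.5 the median of all genes is 0.58 as deposited and 0.14 on the coding scale, and Bmp4 is above it on both, at 1.72 and 1.30.

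Markers of other cells moved with some of these values. Of the 9 genes of the ureter and smooth muscle list, 6 were tested; the list summed to 199, 168, 1250 and 515 TPM over the 4 stages in CPF libraries and to 183, 115, 254 and 243 TPM in DMSO libraries, and its members Myh11, Myocd and Smtn stayed under 1 TPM. The highest sum, in the CPF library of E16.5, coincided with the highest Bmp4 and Grem1. The renal stroma, liver and adrenal cortex lists also had their highest sums in that library (2376, 5898 and 495 TPM). In the CPF library of E18.5 Bmp4 was nearly as high, at 37.3 TPM, where the smooth muscle sum was 515 TPM. The endothelial list, with 7 of 10 genes tested and Pecam1, Tek and Eng under 1 TPM, summed to 143, 121, 357 and 501 TPM in CPF libraries and to 228, 149, 235 and 169 TPM in DMSO libraries. It was thus highest in the CPF library of E18.5, where Id2 was highest. The ureteric bud and collecting duct list was highest there too, at 1108 TPM. All these list sums are as deposited and were not put on the coding scale. Coding transcripts took 53.3% of the TPM in the DMSO library of E18.5 and 73.9% in the CPF library. Id1 was highest in the CPF library of E16.5 and Id3 in the DMSO library of E12.5. Myh11, Myocd, Smtn, Pecam1, Tek and Eng each have several RefSeq transcripts, and low values of such genes are not read as low expression. Nephron progenitor markers (8 of 8 tested) summed to 241 to 367 TPM in CPF libraries and 354 to 495 TPM in DMSO libraries. The part of these cells in the levels of Bmp4, Grem1 and the Id genes was not tested.

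No other gene of the 6 pathway lists was called between CPF and DMSO, against 0.161% of all genes, or for the slopes, against 0%. Between E18.5 and E12.5 5 were called, against 4.67% of all genes called higher and 3.73% called lower. The secreted antagonists and modulators held 2 of 14 tested genes called higher, against 4.67% of all genes, and none lower. Sostdc1, a BMP and WNT antagonist of the kidney epithelium, had 3.57, 8.16, 49.8 and 237 TPM in CPF libraries and 2.39, 9.39, 47.3 and 56.3 TPM in DMSO libraries (4.89 ± 0.49 log2 units for E18.5 minus E12.5, adjusted p of 0.00022, limma). The 2 libraries of a stage were close up to E16.5 and 2.05 log2 units apart at E18.5 (1.59 on the coding scale), and the gene stayed called under all 16 other settings.

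Among the 7 tested ligands outside the 9 genes, Gdf7 was called higher at E18.5 than at E12.5 (1 of 7, against 4.67% of all genes; 2.10 ± 0.53 log2 units, adjusted p of 0.0301, limma), with 0.794, 0.202, 3.77 and 11.3 TPM in CPF libraries and 0.749, 0.704, 8.43 and 3.69 TPM in DMSO libraries. Of the receptors and co-receptors 2 of 7 tested were called lower, against 3.73% of all genes, and 2 of 7 were above 0. The type II receptor Acvr2b had 37.0, 20.7, 28.3 and 23.0 TPM in CPF libraries and 81.1, 37.6, 34.3 and 20.2 TPM in DMSO libraries (-1.31 ± 0.37, adjusted p of 0.0488). The co-receptor Hfe2 (hemojuvelin), known from skeletal muscle and liver, had 7.25, 4.24, 1.28 and 0.311 TPM in CPF libraries and 1.83, 2.88, 0.1 and 0.0601 TPM in DMSO libraries (-2.04 ± 0.43, adjusted p of 0.0126). In the same order, skeletal muscle markers summed to 665, 471, 170 and 21.3 TPM in CPF libraries. In DMSO libraries they summed to 194, 206, 72.0 and 6.35 TPM, and 5 of 6 tested were called lower. Liver markers summed to 203, 4932, 5898 and 1057 TPM in CPF libraries and 22.3, 970, 67.2 and 43.4 TPM in DMSO libraries. Of these, 8 of 8 tested were above 0 in E18.5 minus E12.5, and none was called. The part of either tissue in the values of Hfe2 was not tested. The call of Gdf7 was lost under 4 of 15 other settings (adjusted p of 0.107, 0.156 and 0.109 without the CPF libraries of E12.5 and E18.5 and the DMSO library of E12.5, and 0.13 with no filter). That of Acvr2b was lost under 8 of 16 (up to 0.374, without both middle pairs; -0.91 and -0.85 log2 units without the DMSO libraries of E12.5 and E18.5; adjusted p of 0.0751 and 0.0779 without the CPF and the DMSO library of E16.5). That of Hfe2 was lost under 3 of 15 (0.121 and 0.0802 without the CPF libraries of E12.5 and E18.5, and 0.0598 with no filter).

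The intracellular steps and the other BMP targets showed no called gene in any of the tests. Among all genes 0.161% were called between CPF and DMSO and 0% for the slopes. In E18.5 minus E12.5 4.67% were called higher and 3.73% lower. With so few genes tested per list, the lack of a call is not read as a result about these steps. Of the SMAD mediators (0 of 3 tested called), Smad4, the common partner, had 101 to 167 TPM and Smad1 31.5 to 48.8 TPM over the 8 libraries. Of the intracellular inhibitors (0 of 5), Smurf2, a ubiquitin ligase, had 59.9 to 81.1 TPM and Ski, a SMAD co-repressor, 33.7 to 67.5 TPM. Among the other BMP targets (0 of 6), Tbx2 had 22.8, 24.7, 41.8 and 62.8 TPM in CPF libraries and 48.0, 27.3, 40.6 and 24.6 TPM in DMSO libraries, and Hey1 35.3, 26.3, 41.0 and 46.1 TPM and 49.1, 33.1, 35.5 and 25.9 TPM. In both transcription factor genes the CPF library was the lower at E12.5 and E14.5 and the higher at E16.5 and E18.5, as it was for Bmp7 and Id3. On the coding scale the CPF library was the lower at E16.5 too for all 4 genes (-0.16, -0.003, -0.01 and -0.09 log2 units for Tbx2, Hey1, Bmp7 and Id3). Their slope differences were 0.36 ± 0.09 and 0.22 ± 0.08 log2 units per day (adjusted p of 0.132 and 0.14, limma), against a median of 0.11 over all genes.

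**Figure D5:**
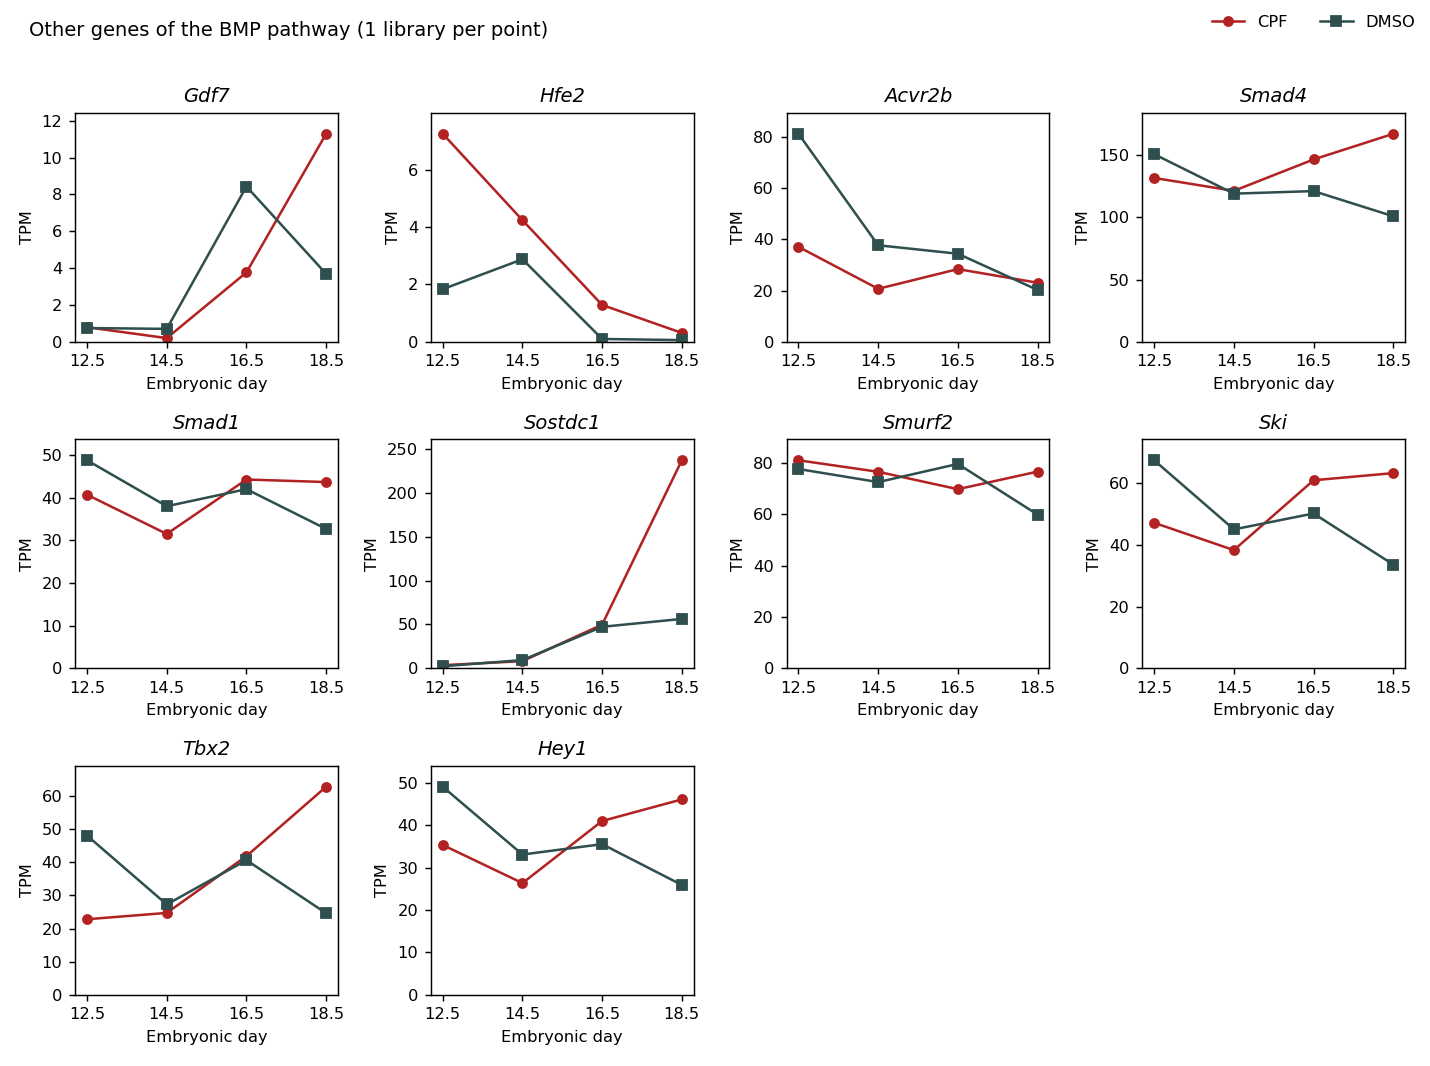
TPM of 10 other pathway genes against embryonic day, with CPF libraries as red circles and DMSO libraries as dark squares, 1 library per point and no error bars. Sostdc1 reaches 237 TPM in CPF and 56.3 TPM in DMSO at E18.5.

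The genes whose levels ran most like each member over the 8 libraries were sought among up to 6240 genes that averaged 20 TPM or more, by Pearson's r of log2(TPM + 1), given as a description since all points share the same 8 libraries and their composition. For Bmp4 they were Actn1 (r = 0.985), Sh3bp4 and Nt5m, and for Bmp7 Slc20a2 (0.982), Bri3bp and Slc25a28. For Bmp5 they were Spag5 (0.981), Bnc2 and the embryonic globin gene Hbb-y, and for Bmper Zfp521 (0.986), Zfp422 and Hk2, with 221 and 271 genes at r of at least 0.9. For Id3 they were Wdr86 (0.985), the hedgehog receptor gene Ptch1 and Irf2bpl, and for Id2 Zfp7 (0.974), Lrp6 and Ankrd28. Id1 and Bmp2 had few close patterns: Jun (0.929), Rn45s and Col23a1 for Id1, and Zfp36l1 (0.973), Dcdc2b and 1190002N15Rik for Bmp2, with 7 and 6 genes at r of at least 0.9. Among the members themselves the highest values were 0.879 for Bmp4 with Id3, 0.858 for Bmp2 with Id1 and 0.839 for Id1 with Id3. That of Bmp5 with Bmper was 0.816, and that of Bmp5 with Bmp4 was -0.03.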

How the data were processed

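Total RNA of embryonic kidney (2 μg per library, per the labels' protocols) was sequenced, and Trimmomatic, STAR and the mm10 build are named in the submitters' processing notes, without versions. The authors deposited TPM per RefSeq transcript, and the labels used here do not say how reads were assigned. Transcripts were summed per symbol into 24151 genes. Genes with several RefSeq transcripts in the files were mostly near 0 (4777 genes, median 0.142 TPM, against 3.64 TPM for 19374 genes with 1), so low values of such genes are not read as low expression; all 9 members had 1. TPM keeps no depth. Taking the commonest step between low values as 1 read, 1 read in 1 kb was worth 0.0609 to 0.105 TPM, with 61.8 to 65.5% of low values whole multiples (tolerance 0.02), so read numbers are estimates.

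Limma 3.58.1 (R 4.3.3; trend and robust moderation) was fitted to log2(TPM + 1) of 13677 genes with at least 1 TPM in at least 2 libraries, with Benjamini-Hochberg adjustment over all and calls under 0.05. Fold changes on this scale understate those of low genes. Stage and agent formed 1 fit (3 residual degrees of freedom), and agent by embryonic day another (4), whose spread is the departure from a straight line. No p-value measures the spread between animals. The code was tested on simulated data. Tables were handled with Python 3.11.15 and pandas 2.3.3. The members and lists were chosen with earlier results of these data known. Named pathway genes were the called ones of each list, up to 4 by p, or else the 2 with the highest mean; for each member with a mean of at least 5 TPM, the 3 genes of highest r were named. A pathway gene that this rule names is not reported here. Alternatives were quantile normalization, the coding scale, other filters, a pseudocount of 0.1, plain moderation, other stage terms and left-out libraries.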

Additional observations from a re-analysis of the deposited data

How the results depend on the processing

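Of 384 recomputed values of the 9 members in the 3 fits, 356 kept their direction and their side of the threshold and 28 reversed; none of those 28 was a called value. Bmp5 and Bmper stayed called in E18.5 minus E12.5 under every setting run, and no other member was called under any. Under quantile normalization the log2 difference of CPF minus DMSO was -0.066 for Bmp2 and -0.16 for Id3, E18.5 minus E12.5 was 0.071 for Bmp7, 0.099 for Id2 and 0.042 for Id3, and the slope of Bmper was -0.0029. On the coding scale, CPF minus DMSO was -0.15 for Id3, and E18.5 minus E12.5 was 0.11 for Bmp7, 0.052 for Id2 and 0.042 for Id3. The coding-scale ratios at E16.5 were -0.014 for Bmp7, -0.12 for Id1 and -0.094 for Id3, and that of Bmper at E18.5 was -0.20. With embryonic day as a line, E18.5 minus E12.5 was 0.13 for Bmp4 and 0.040 for Id3. Without both the E14.5 and E16.5 pairs, CPF minus DMSO was 0.055 for Bmp7; this setting left no residual degrees of freedom for slopes and was not run there. Members past 2-fold numbered 0 at E16.5 and 1 at E18.5 on the coding scale, against 1 and 2 as deposited. The cause of these shifts was not tested. Coding transcripts took 63.2% of the TPM in the DMSO library of E16.5 and 53.3% in that of E18.5. In the CPF libraries of these stages they took 73.1 and 73.9%.

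Leaving out each stage in turn, CPF minus DMSO ran from -0.014 to 0.35 for Bmp2, -0.24 to 0.19 for Bmp7, -0.063 to 0.43 for Id2 and -0.21 to 0.19 for Id3. Leaving out each library in turn, E18.5 minus E12.5 ran from -0.68 to 0.057 for Bmp2, -1.21 to 0.70 for Bmp4, -0.61 to 0.34 for Bmp7, -0.87 to 0.49 for Id2 and -0.68 to 0.28 for Id3, and the slope of Bmp5 from -0.19 to 0.15. The count of all genes called in CPF minus DMSO (22) was 0 under quantile normalization, without a filter, without a stage term and with a linear day, 1 on the coding scale, 4 with plain moderation, 34 without both middle pairs, 83 with a pseudocount of 0.1, 103 with a stricter filter (mean of 5 TPM or more), and 25 to 221 with a stage left out. That of E18.5 minus E12.5 (1149) was 394 without a filter and 608 to 1637 with a library left out, and the slope count stayed at 0 throughout. By replicate number, no paired analysis was possible because each group has 1 library; the stage term of the fit already sets CPF against DMSO within each stage. One library per agent and stage and unknown numbers of animals limit all of these results, and depth could not be read from TPM.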
